A study of Mus musculus with 15 samples.

Results

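The fibrillar collagens were followed across 5 groups of Mouse Embryonic Fibroblasts (MEFs). The family was taken as 10 genes, *Col1a1*, *Col1a2*, *Col2a1*, *Col3a1*, *Col5a1*, *Col5a2*, *Col5a3*, *Col11a1*, *Col24a1* and *Col27a1*, and every non-control probe of the microarray whose RefSeq transcript belongs to one of them was kept. The array holds 23462 gene symbols, and these 10 had 15 of its 56605 probes. *Col1a1* had 3 probes, *Col5a3*, *Col11a1* and *Col24a1* had 2 each, and the other 6 genes had 1 each. The members were chosen by name and not by a measured value, but with earlier results of these data known. *Col1a1*, *Col5a1* and *Col5a3* also belong to a gene set that the study chose partly on these arrays, so their direction with TNFα and TGFß1 is no independent evidence for that set.

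MEFs are matrix-producing cells taken from mouse embryos. Here they were the established Balb/c 3T3 line (clone A31), so every culture came from 1 clone of an immortal line grown in serum with penicillin and streptomycin. The 15 one-color arrays comprised 3 of untreated MEFs (controls), 3 of MEFs treated by recombinant TNFα (10 ng/ml), 3 by recombinant TGFß1 (5 ng/ml), 3 by IL1β (1 ng/ml) and 3 by IL6 (20 ng/ml) together with its soluble receptor sIL6Rα (25 ng/ml). The labels give 24 or 72 h of culture for all groups; the study states 24 h for the arrays of control, TNFα and TGFß1, and no time is stated for the other groups. The study counts 3 independent experiments for those first groups, and for the IL1β and IL6/sIL6Rα groups nothing says that the 3 arrays came from separate cultures, so p-values there may measure a technical spread. All 5 groups shared 1 estimate of the spread, so the IL1β and IL6/sIL6Rα arrays also enter the SE and q-values of TNFα and TGFß1 against control.

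Fibrillar collagens are the rope-like proteins of the extracellular matrix. Their chains are made as procollagens, folded into a helix in the endoplasmic reticulum with the help of hydroxylases and chaperones, trimmed outside the cell and cross-linked into fibrils. Type I collagen, from *Col1a1* and *Col1a2*, is the main collagen of skin, tendon and bone and the main product of fibroblasts; type III, from *Col3a1*, accompanies it in soft and stretchable tissues; type V, from *Col5a1*, *Col5a2* and *Col5a3*, is a minor component that starts fibrils and limits their width. Types II (*Col2a1*) and XI (*Col11a1*) form the fibrils of cartilage, and types XXIV (*Col24a1*) and XXVII (*Col27a1*) are less abundant members. TGFß1 is known to raise, and TNFα to lower, type I collagen synthesis by fibroblasts.

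The stretches of DNA just before 3 of these genes are shown as examples of both directions with TNFα. *Col1a2* and *Col3a1* fell while *Col5a3* rose. *Col5a1*, not shown, fell by more (log2 fold-change -1.21) than *Col1a2* (-0.66). The printed stretches come from RefSeq windows of GRCm38.p6 that hold 250 bases before and 50 after each gene's start. Of the 10 members, 7 had such a window. The first and last printed base are counted from the start, and bases inside any transcript of the gene were left out. Capitals mark a CCAAT box (CCAAT) or a TATA box (TATAAA).
*Col1a2*, chr6:4505488-4505617, + strand, -130 to -1: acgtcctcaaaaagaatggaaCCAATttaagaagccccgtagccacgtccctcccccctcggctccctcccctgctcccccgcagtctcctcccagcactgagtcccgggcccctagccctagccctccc
*Col3a1*, chr1:45311408-45311537, + strand, -130 to -1: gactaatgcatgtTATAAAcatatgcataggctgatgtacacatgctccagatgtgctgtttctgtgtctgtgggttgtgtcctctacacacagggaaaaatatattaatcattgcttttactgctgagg
*Col5a3*, chr9:20815118-20815197, - strand, -130 to -51: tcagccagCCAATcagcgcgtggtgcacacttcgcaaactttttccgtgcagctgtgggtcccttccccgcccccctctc

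The 250 bases before the start were searched on both strands. A CCAAT box, the site of the factor NF-Y, lay in 3 of the 7 members' windows (*Col1a2*, *Col5a3* and *Col11a1*), and in 33.8% of the 32851 windows of all genes. The TATA box lay in the window of *Col3a1* alone, against 12.4% of all windows. The GC box GGGCGG lay in 5 of the 7 windows (32.7% of all), the single SMAD box CAGAC in 5 (42.2% of all) and the E-box CAGCTG in 2 (13.0% of all). The paired SMAD box GTCTAGAC (0.167% of all windows) and the NF-kB core GGAAANTCC (1.07% of all windows) were in none of the 7. These letters are a description and not evidence of binding.

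The values below are log2 of the processed signal of a probe minus the 75th percentile of its array, so that 0 is the 75th percentile and a difference of 1 is a doubling. Within a group the arrays are given in the order of their label numbers, which is 1, 6 and 11 for control, 4, 9 and 14 for TNFα, 2, 7 and 12 for TGFß1, 5, 10 and 15 for IL1β and 3, 8 and 13 for IL6/sIL6Rα. Levels of different probes are not comparable. A probe was tested where all 3 arrays of any 1 group read it well above background. It was called where limma's q-value was below 0.05 and the fold-change, up or down, reached 1.5. In bulk RNA, fewer producing cells and less RNA per cell cannot be told apart.

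Between 48.3% and 54.8% of all probes were well above background on an array. The arrays lay on 2 slides, and 10734 of the 29333 tested probes differed between the slides (q below 0.05). Most control, IL1β and IL6/sIL6Rα arrays lay on slide 1 and most TNFα and TGFß1 arrays on slide 2. Slide and treatment are thus partly confounded where the slide is not fitted. The 3 runs of label numbers (1 to 5, 6 to 10, 11 to 15) each hold 1 array of every group, and 9220 tested probes differed between the middle run and the others with group and slide in the model. All 7 fibroblast markers were tested, and their summed signal, in units of the array's 75th percentile, was 1163 to 1454 in controls, 817 to 1045 with TNFα and 837 to 1171 with TGFß1. Such a sum is weighted towards the brightest probes. None of these markers was called with TNFα. With TGFß1, *Pdgfra* (-1.98 ± 0.23) and *S100a4* (-0.74 ± 0.20) were called lower and *Pdgfrb* (0.68 ± 0.14) higher. The leukocyte markers *Ptprc* and *Adgre1*, the endothelial markers *Cdh5*, *Kdr* and *Tek* and the epithelial marker *Cdh1* were well above background on 0 arrays. In contrast, the endothelial marker *Pecam1* and the leukocyte markers *Cd68*, *Csf1r* and *Cd14* were well above background on every array. *Pecam1* was called in no comparison. Of the 5 epithelial markers 2 were tested, and *Krt8*, well above background on 0 control arrays, was at least 3.36-fold higher with TGFß1 (limma q = 0.018) while *Krt18* was not. Their summed signal was 0.110 to 0.237 in controls, 0.0699 to 0.106 with TNFα and 0.244 to 0.627 with TGFß1. Of the 5 leukocyte markers 3 were tested, and *Cd14* alone was called higher with TNFα (0.79 ± 0.14), the summed signal being 1.81 to 2.25 in controls and 2.40 to 2.98 with TNFα. The part of these markers in the collagen results was not tested. As a check of the treatments, 4 of 5 TGFß1 response genes rose with TGFß1 (*Ccn2*, log2 fold-change 3.08), 5 of 5 TNFα and IL1β response genes rose with each of these cytokines, and 2 of 4 IL6 response genes, *Socs3* (log2 fold-change 2.39) and *Bcl3* (1.65), rose with IL6/sIL6Rα.

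Of the 15 collagen probes, 11 from 8 genes were tested. The type I, III and V chains had probes well above background on every array. Both probes of *Col24a1* and the second probe of *Col11a1* were well above background on 0 of 15 arrays. *Col27a1* was well above background on 3 arrays only, TGFß1 7 (-3.33), TGFß1 12 (-4.71) and IL1β 15 (-3.70), and lay between -7.44 and -5.19 on the other 12. Its brightest arrays thus came from TGFß1- and IL1β-treated MEFs without holding for all 3 arrays of either group, and no fold is given.

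**Figure D1:**
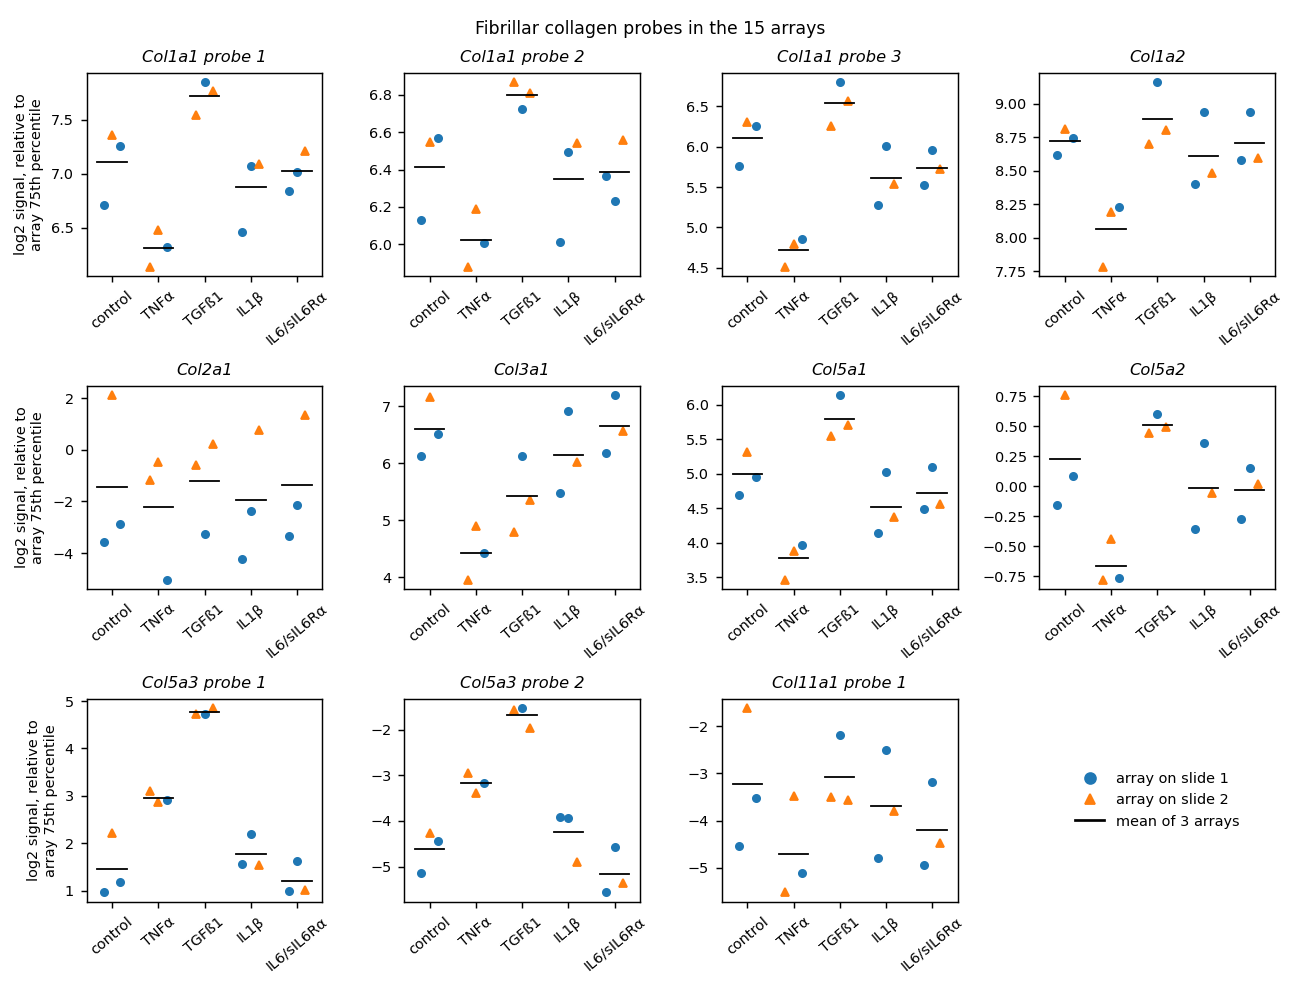
Log2 signal relative to the array's 75th percentile (vertical axis) of the 11 tested probes of fibrillar collagen genes in the 5 groups (horizontal axis); each point is 1 array, its shape and colour give the slide, and the line is the mean of 3 arrays. All TNFα arrays lie below all control arrays for *Col3a1*, *Col5a1*, *Col5a2*, *Col1a2* and *Col1a1* probes 1 and 3, all TGFß1 arrays lie above all other arrays for both *Col5a3* probes, and the *Col2a1* points separate by slide.

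With TNFα, the major chains fell. Called lower were 6 of the 11 tested probes, from *Col1a1* (2 probes), *Col1a2*, *Col3a1*, *Col5a1* and *Col5a2*, against 5.96% of all tested probes called lower, and 2 were called higher, both of *Col5a3*, against 4.09% of all. The median log2 fold-change was -0.79 over the 11 member probes and 0.04 over all tested probes. With TGFß1, 4 probes were called higher, those of *Col5a3*, *Col5a1* and the first of *Col1a1*, against 7.51% of all, and 0 were called lower, against 10.4% of all. The member median was 0.39 with TGFß1, and 0.07 over all tested probes. Both comparisons use the same 3 control arrays.

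*Col3a1*, the chain of type III collagen, had the largest called fall when neither slide nor run was fitted. Its log2 values were 6.13, 7.15 and 6.51 in controls and 3.96, 4.90 and 4.43 with TNFα, so every treated array lay below every control. The log2 fold-change was -2.17 ± 0.44 (SE; n = 3 arrays each; limma q = 0.0065), a 4.5-fold decrease. The difference was -1.89 within slide 1 and -2.73 within slide 2, and -2.13 with the slide in the model (q = 0.0082).

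*Col3a1* was also lower in every array with TGFß1, at 4.79, 6.12 and 5.35, although the profibrotic cytokine raised other members. Here the log2 fold-change of -1.18 ± 0.44 did not pass the test (limma q = 0.069; 2.26-fold). Once run and slide were both fitted it was -1.15 with a limma q of 1.5e-05, which is called. The difference was -0.20 within slide 1, where TGFß1 7 is the only treated array, and -2.09 within slide 2, where control 6 is the only control.

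The *Col3a1* values of IL1β-treated MEFs were 5.48, 6.92 and 6.02 and those with IL6/sIL6Rα were 6.18, 7.19 and 6.56. Both ranges overlapped with controls, with log2 fold-changes of -0.46 ± 0.44 and 0.05 ± 0.44 that did not pass the test. In order of means the groups ran from IL6/sIL6Rα through control, IL1β and TGFß1 to TNFα, and each group's range overlapped with that of the next.

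For *Col1a1*, the main chain of type I collagen, the 3 probes gave the same order at the ends, highest with TGFß1 and lowest with TNFα, but different sizes. On the first probe (A_52_P525107) the log2 values were 6.71, 7.36 and 7.26 in controls, 6.14, 6.48 and 6.33 with TNFα and 7.54, 7.84 and 7.76 with TGFß1. The 3 groups did not overlap. TNFα gave a log2 fold-change of -0.79 ± 0.21 (limma q = 0.024; 1.73-fold lower) and TGFß1 one of 0.61 ± 0.21 (limma q = 0.048; 1.52-fold higher).

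The TNFα call on this probe was lost without control 6, control 11, TNFα 4 or TNFα 14 (limma q = 0.082, 0.086, 0.10 and 0.058). The TGFß1 call stood close to both thresholds and was lost without any 1 array other than control 6. With the slide in the model the change was 0.56 (limma q = 0.049), and with the runs as well 0.57 (limma q = 0.00079), both under a fold-change of 1.5 and therefore not called. The second probe (A_55_P2118520) held 6.13, 6.55 and 6.57 in controls, 5.88, 6.19 and 6.01 with TNFα and 6.87, 6.73 and 6.81 with TGFß1. Its changes of -0.39 ± 0.17 (q = 0.16) and 0.39 ± 0.17 (limma q = 0.12) were not called.

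The third *Col1a1* probe (A_66_P101466) moved most with TNFα. It read 5.76, 6.31 and 6.25 in controls and 4.51, 4.80 and 4.86 with TNFα, with no overlap and a log2 fold-change of -1.38 ± 0.22 (limma q = 0.0013; 2.61-fold lower). With TGFß1 it read 6.26, 6.80 and 6.56, which overlapped with controls and was not called (0.43 ± 0.22; limma q = 0.17). So 2 of the 3 probes were called lower with TNFα and 1 of the 3 was called higher with TGFß1. All 3 had a higher mean with TGFß1 than in controls (log2 fold-changes 0.61, 0.39 and 0.43). When run and slide were fitted, their limma q-values with TGFß1 were 0.00079, 0.043 and 0.0019. None of the 3 was called higher in that fit, because the fold-changes were too small. The probes were not printed equally often, the first and second having 10 spots each on an array and the third 1.

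*Col1a2*, the other chain of type I collagen, fell with TNFα by less. Its log2 values were 8.62, 8.81 and 8.74 in controls and 7.79, 8.19 and 8.23 with TNFα, again without overlap, and the log2 fold-change was -0.66 ± 0.18 (limma q = 0.033; 1.58-fold lower). With TGFß1 it held 8.70, 9.16 and 8.80, a change of 0.16 ± 0.18 that was not called (limma q = 0.55). Leaving out any 1 array ended the *Col1a2* call with TNFα in 5 of 6 cases (limma q from 0.045 to 0.15), while the third *Col1a1* probe kept its call in all 6.

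*Col5a1*, which codes for the chain found in nearly all type V collagen, moved in opposite directions with the 2 cytokines, as did the first *Col1a1* probe. Its log2 values were 4.70, 5.32 and 4.95 in controls, 3.47, 3.89 and 3.97 with TNFα and 5.55, 6.13 and 5.70 with TGFß1. No array of one group overlapped with another of these groups. TNFα gave -1.21 ± 0.26 (limma q = 0.0091; 2.32-fold lower) and TGFß1 gave 0.81 ± 0.26 (limma q = 0.041; 1.75-fold higher).

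The fall of *Col5a1* was -0.85 within slide 1 and -1.64 within slide 2, and its rise was 1.31 and 0.31. The fall lost its call without TNFα 4 (limma q = 0.050, just above the threshold). The rise lost its call in 5 of the 6 fits that left out 1 array (limma q from 0.035 to 0.14) and under quantile normalization (0.61; limma q = 0.14). *Col5a2*, the usual partner chain, read -0.16, 0.76 and 0.09 in controls and -0.78, -0.44 and -0.77 with TNFα, a log2 fold-change of -0.89 ± 0.23 (limma q = 0.025; 1.85-fold lower) whose call was lost without control 6, TNFα 4 or TNFα 14 (limma q = 0.076, 0.095 and 0.075). With TGFß1 it read 0.44, 0.60 and 0.49, inside the control range, and was not called (0.28 ± 0.23; limma q = 0.41).

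*Col5a3*, the least common type V chain, rose with both cytokines and was the only member to rise with TNFα. On its first probe (A_51_P241995) the log2 values were 0.96, 2.22 and 1.19 in controls, 3.1, 2.86 and 2.92 with TNFα and 4.72, 4.73 and 4.85 with TGFß1. The groups did not overlap, and the TGFß1 arrays lay within 0.13 of each other. The log2 fold-change was 1.5 ± 0.29 with TNFα (limma q = 0.0052; 2.83-fold) and 3.31 ± 0.29 with TGFß1 (limma q = 1.3e-05; 9.91-fold).

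The second *Col5a3* probe (A_52_P503796) was dim, well above background on 1 of 3 control arrays and on all TNFα and TGFß1 arrays. It read -5.14, -4.26 and -4.43 in controls, -2.94, -3.39 and -3.16 with TNFα and -1.57, -1.53 and -1.96 with TGFß1. The order of the groups was the same as on the first probe, without overlap. Its log2 fold-changes of 1.45 ± 0.32 (limma q = 0.011; 2.72-fold) and 2.92 ± 0.32 (limma q = 7.0e-05; 7.59-fold) were both called, the first only with TNFα 4 included (limma q = 0.054 without it). With the normexp background correction these changes were 0.45, which is not called, and 1.29, which is, so the size of the rise on this probe depends on the background. On the first probe the rise with TNFα was 1.84 within slide 1 and 0.76 within slide 2, and the rise with TGFß1 3.66 and 2.56; control 6, the highest control, is the only control on slide 2.

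**Figure D2:**
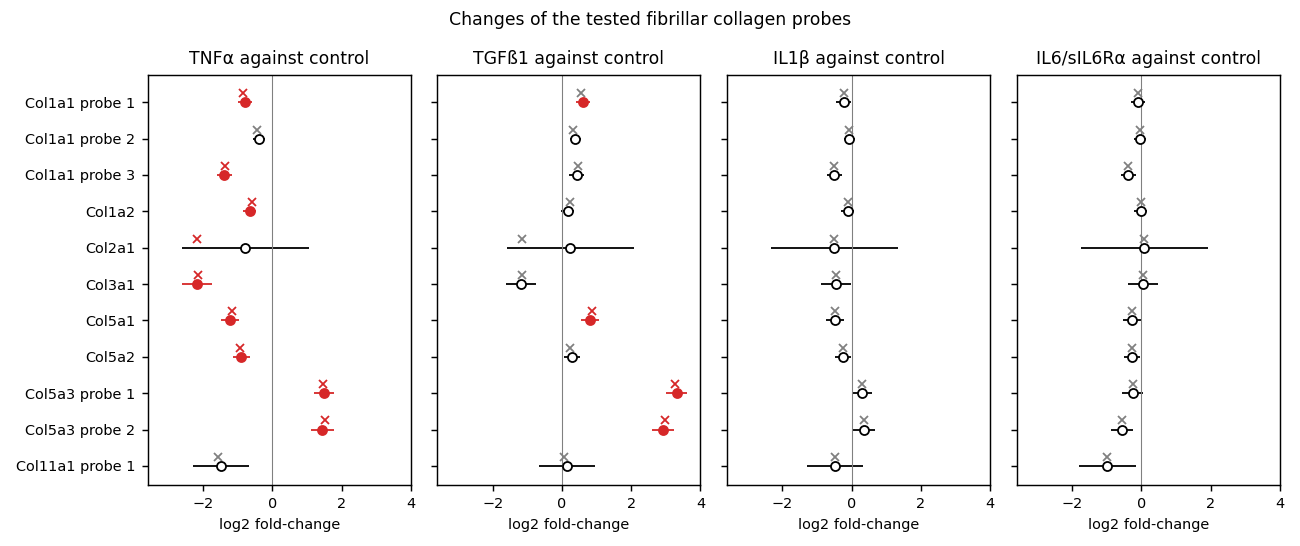
Log2 fold-change against control (horizontal axis) of the 11 tested probes (vertical axis) with TNFα, TGFß1, IL1β and IL6/sIL6Rα; circles with bars are the estimate and its SE, red where called and open where not, and crosses are the estimate with the slide in the model, red where called. *Col5a3* stands at 1.5 and 3.31 with TNFα and TGFß1, *Col3a1* at -2.17 and -1.18, and the IL1β and IL6/sIL6Rα panels hold no called probe.

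The cartilage collagens were less readily measured. The *Col2a1* probe, for type II collagen, was well above background on 14 of 15 arrays, but its values followed the slide. It differed by 4.16 between slides (slide 2 minus slide 1, with group in the model; limma q = 3.8e-06), while the other 10 tested member probes differed by -0.19 to 0.22 and none with a q below 0.05. Its log2 values were -3.56, 2.11 and -2.89 in controls and -1.18, -0.48 and -5.03 with TNFα.

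Every control and TNFα array on slide 2 read above every one on slide 1, and without the slide the change with TNFα was -0.78 ± 1.83 (limma q = 0.83). With the slide in the model it was -2.17 (limma q = 0.018) and was called lower; it was -1.80 within slide 1 and -2.94 within slide 2. With TGFß1 the values were -0.59, -3.25 and 0.22, a change of 0.24 ± 1.83 without the slide and of -1.15 (limma q = 0.13) with it. The runs together with the slide gave -1.15 (limma q = 0.00060), which is called. The part of the slide in the *Col2a1* signal was not tested further, and all 6 chondrocyte markers examined were too dim to test: *Acan*, *Col10a1*, *Matn1* and *Hapln1* were well above background on 0 arrays, *Col9a1* on 2 and *Matn3* on 1, these 3 occurrences being with TGFß1.

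*Col11a1*, for a chain of type XI collagen, was dim. On the first probe (A_51_P459477) it read -4.53, -1.61 and -3.52 in controls, -5.52, -3.48 and -5.11 with TNFα and -3.50, -2.17 and -3.56 with TGFß1, and the groups overlapped. The middle array of each group, from the run 6 to 10, was the brightest. The change with TNFα was -1.48 ± 0.81 (limma q = 0.28), and with run and slide fitted -1.59 (limma q = 0.00030), which is called. With TGFß1 it was 0.14 ± 0.81 (limma q = 0.92).

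The same run was high for several members. In *Col3a1*, *Col5a2* and *Col11a1* the array of the run 6 to 10 was the highest in 5 of 5 groups, and with group and slide in the model this run exceeded the mean of the other runs by 0.91 ± 0.06 (SE) in *Col3a1*, 0.44 ± 0.07 in *Col5a2* and 1.82 ± 0.13 in *Col11a1*. The difference passed a q-value of 0.05 in 8 of the 11 tested member probes and in 31.4% of all tested probes, whose median was -0.02. It did not in both *Col5a3* probes and the second *Col1a1* probe. The runs are balanced over the groups, so this raises the spread within groups and does not shift their means. Within a slide the runs are not balanced over the groups, so the within-slide differences above also contain the run.

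**Figure D3:**
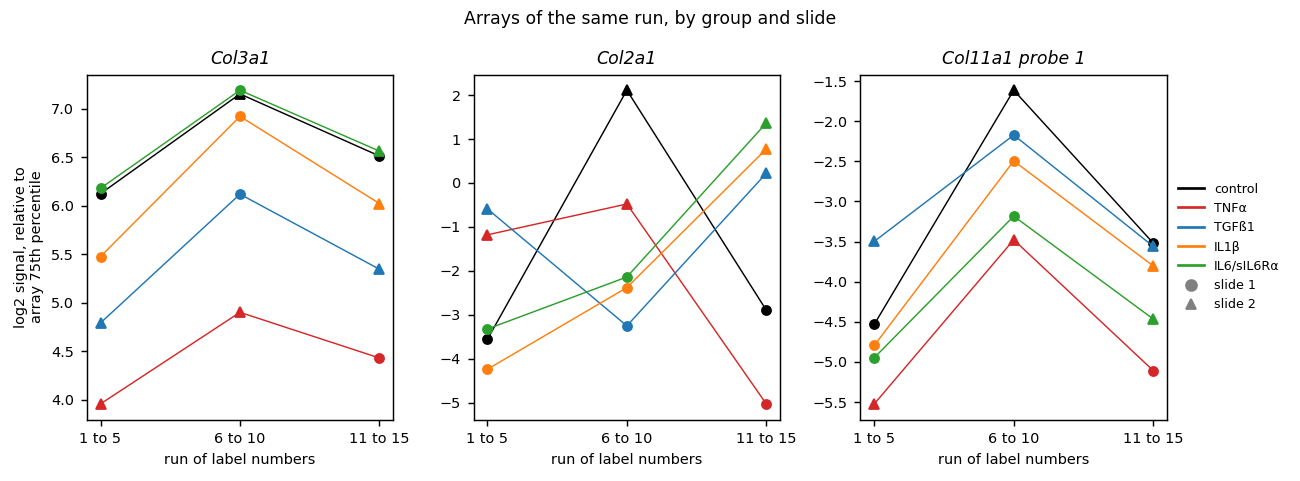
Log2 signal relative to the array's 75th percentile (vertical axis) of *Col3a1*, *Col2a1* and the first *Col11a1* probe by run of label numbers (horizontal axis); lines join the 3 arrays of a group, circles are arrays on slide 1 and triangles arrays on slide 2. *Col3a1* and *Col11a1* peak at the run 6 to 10 in all 5 groups, and *Col2a1* is high on the triangles.

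Compared directly, TGFß1-treated MEFs exceeded TNFα-treated MEFs in 8 of the 11 tested probes, against 5.18% of all tested probes called higher, and in none were they called lower, against 6.61% of all. The called probes were all those of *Col1a1* (log2 differences 1.40, 0.78 and 1.81), *Col1a2* (0.82), *Col5a1* (2.02 ± 0.26; limma q = 0.00018; 4.06-fold), *Col5a2* (1.17) and *Col5a3* (1.81 and 1.48). The number stayed at 8 whichever of the 6 arrays was left out. *Col3a1* (0.99 ± 0.44; limma q = 0.17), *Col2a1* (1.02 ± 1.83) and *Col11a1* (1.63 ± 0.81; limma q = 0.23) were not called, whereas all 11 probes were called higher when run and slide were fitted, against 6.97% of all called higher and 9.12% lower in that fit.

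IL1β called no member probe in either direction, against 0.228% of all tested probes called higher and 0.00341% called lower; 1 member probe, the third of *Col1a1*, had an unadjusted limma p below 0.05 (log2 fold-change -0.50 ± 0.22). With run and slide fitted, this *Col1a1* probe (-0.50; limma q = 0.023) and *Col3a1* (-0.46; limma q = 0.042) had a q below 0.05 with IL1β. Neither reached a fold-change of 1.5, so neither was called. The other tested member probes had a limma q of 0.052 (*Col5a1*) or more in that fit. For *Col5a3*, the first probe read 1.56, 2.19 and 1.54 with IL1β, inside the control range. The member median was -0.25, and 0.00 over all probes. IL6/sIL6Rα likewise called no member, against 0.058% of all called higher and 0% called lower, and no member had an unadjusted limma p below 0.05. The member log2 fold-changes with IL6/sIL6Rα lay between -0.98 (*Col11a1*) and 0.08 (*Col2a1*), and that of *Col11a1* was called lower when run and slide were fitted (limma q = 0.050).

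IL1β and TNFα, which share much of their signalling, differed from each other in 3 member probes. *Col3a1* was higher with IL1β by 1.71 ± 0.44 (limma q = 0.040) and the third *Col1a1* probe by 0.88 ± 0.22 (limma q = 0.033), against 3.01% of all probes called higher, and the first *Col5a3* probe was lower by 1.20 on the log2 scale (difference -1.20 ± 0.29; limma q = 0.032), against 1.68% of all called lower. None of these calls held in a fit of the groups compared with control only, and when run and slide were fitted 9 member probes were called, 7 higher, against 5.75% of all, and 2 lower, against 4.75% of all. The doses were 1 ng/ml of IL1β and 10 ng/ml of TNFα, so the cytokines were not matched in dose.

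Across the 15 arrays, with the slide difference removed, the members fell into patterns that are given as a description, since all points share the same groups and runs. *Col1a1*, *Col1a2*, *Col5a1* and *Col5a2* followed each other (Pearson's r 0.97 for *Col1a2* with *Col5a2* and 0.96 for *Col1a1* with *Col5a1*). *Col2a1* followed *Col3a1* at r = 0.99, and *Col5a3* ran against both (-0.43 and -0.47). Among 13520 other genes, those most like *Col1a1* were *Fkbp7* (r = 0.99), *Surf4* (0.98) and *Serpinh1* (0.98), the last being the collagen chaperone HSP47, and those most like *Col1a2* were *Fkbp14*, a collagen-folding prolyl isomerase (0.98), *Col6a3* (0.96) and *Zdhhc9* (0.96). *Col3a1* and *Col2a1* had the same nearest genes, *Matn2*, *Slc16a4* and *Copz2* (0.98 to 1.00), and *Col5a3* had *Chrna1* (0.98), *Abtb2* (0.97) and *Rbpms2* (0.97).

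*Col5a1* was most like *Enpp3* (0.98), *Dlgap2* (0.98) and *Gng11* (0.97), and *Col5a2* like *2510009E07Rik* (0.97), *Fkbp14* (0.95) and *Smarca1* (0.95). *Col11a1* had lower likenesses, with *Ociad2* (0.94), *Mxra7* (0.93) and *Ap1s2* (0.92). All these genes were measured on the same 15 arrays.

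In the machinery that folds and exports procollagen, 3 of 19 tested genes fell with TNFα (15.8%, against 5.96% of all tested probes) and 0 rose: *Creb3l1*, a transcription factor of collagen secretion (log2 fold-change -1.22 ± 0.22), *Plod1*, a lysyl hydroxylase (-1.16 ± 0.18), and *Fkbp14* (-0.86 ± 0.18). With TGFß1, 3 rose (15.8%, against 7.51% of all) and 0 fell, namely *Creb3l1* (1.64 ± 0.22), the lysyl hydroxylase *Plod2* (0.95 ± 0.14) and its partner *Fkbp10* (0.63 ± 0.15). Between TGFß1 and TNFα, 7 were called higher with TGFß1 (36.8%, against 5.18% of all tested probes), *Serpinh1* among them (0.77 ± 0.17). None was called lower, against 6.61% of all. The list's median was -0.35 with TNFα and 0.21 with TGFß1, beside 0.04 and 0.07 over all tested probes.

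Of 11 tested genes for the trimming and cross-linking of procollagen, 3 fell (27.3%, against 5.96% of all tested probes) and 1 rose with TNFα (9.09%, against 4.09%). *Adamts2*, which removes the amino-terminal propeptide, fell (-1.52 ± 0.16), while *Adamts14*, which acts on the same end, rose (1.52 ± 0.19). *Pcolce*, an enhancer of carboxy-terminal trimming (-0.81 ± 0.16), and the lysyl oxidase relative *Loxl1* (-0.69 ± 0.16) fell. With TGFß1, 4 rose (36.4%, against 7.51% of all) and 1 fell (9.09%, against 10.4%): the carboxy-terminal proteinases *Tll1* (6.28 ± 0.96, well above background on 2 of 3 control arrays) and *Bmp1* (0.62 ± 0.18), their enhancer *Pcolce2* (5.80 ± 0.74) and *Loxl3* (0.68 ± 0.22) were higher, and *Loxl1* was lower (-0.60 ± 0.16), a call lost with the slide in the model. *Loxl3* and *Pcolce2* were also picked by the study partly on these arrays.

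Among 18 tested partners of the fibril and collagen receptors, 6 fell (33.3%, against 5.96% of all tested probes) and 2 rose with TNFα (11.1%, against 4.09%). The small proteoglycans *Fmod* (-3.31 ± 0.46) and *Aspn* (-3.08 ± 0.69), which bind fibrils, and the collagen-binding integrin *Itga11* (-2.19 ± 0.39) fell. The proteoglycan *Dcn* rose (1.91 ± 0.41), and the collagen-binding integrin *Itga2*, well above background on 0 control arrays and all TNFα arrays, was at least 3.27-fold higher (limma q = 0.015), a bound against the dimmest signal well above background on the control arrays. With TGFß1, 3 rose, *Itga11* (1.77 ± 0.39), *Itgb1* (0.84 ± 0.10) and *Fn1* (0.81 ± 0.22), which is 16.7% of the list against 7.51% of all. The 4 that fell were *Tnxb* (-2.22 ± 0.29), *Dcn* (-1.80 ± 0.41), *Comp* (-0.94 ± 0.26) and *Col12a1* (-0.91 ± 0.26), 22.2% of the list against 10.4% of all. *Dcn*, *Itga11* and *Fn1* also belong to the study's gene set.

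Of 10 tested genes that degrade collagen, 4 rose (40%, against 4.09% of all tested probes) and 0 fell with TNFα: the collagenase *Mmp13* (5.84 ± 0.22), the gelatinase *Mmp9* (4.31 ± 0.36), *Mmp1b* (2.24 ± 0.34) and *Mmp1a* (1.76 ± 0.48). *Mmp1a* and *Mmp1b* are close relatives, so their probes may share signal. With TGFß1, *Mmp14* rose (0.60 ± 0.17) and *Mmp1a* (-2.98 ± 0.48) and *Mmp1b* (-1.88 ± 0.34) fell, 10.0% and 20.0% of the list against 7.51% and 10.4% of all. *Mmp13* was also the only gene of these 4 lists called with IL1β (2.60 ± 0.22), and none was called with IL6/sIL6Rα.

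Of 22 tested transcription factors known to act on fibrillar collagen genes, 2 rose (9.09%, against 4.09% of all tested probes) and 1 fell (4.55%, against 5.96%) with TNFα, which were *Nfkb1* (1.10 ± 0.20), *Rfx5*, a repressor of type I collagen genes (0.95 ± 0.28), and *Twist1* (-0.94 ± 0.25). With TGFß1, the feedback inhibitor *Smad7* (2.02 ± 0.47) and *Runx2* (0.80 ± 0.21) rose, and *Twist1* (-1.16 ± 0.25) and *Cebpb* (-0.75 ± 0.11) fell, 9.09% in each direction against 7.51% and 10.4% of all. Once the slide was fitted, 5 of the 22 rose with TNFα, against 5.78% of all tested probes, and 1 fell, against 6.2%.

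When run and slide were fitted, every call of these 5 lists with TNFα or TGFß1 against control was kept apart from that of *Loxl1* with TGFß1. In that fit 7.68% of all tested probes were called higher and 7.74% lower with TNFα, and 10.9% higher and 11.8% lower with TGFß1. More list genes were called in it, also with IL1β, where the proteoglycans *Dcn* (1.88) and *Lum* (1.77), *Mmp9* (1.71) and *Nfkb1* (0.63) were called higher beside *Mmp13*, and *Fmod* (-1.60) and *Aspn* (-1.45) lower, against 0.852% and 0.249% of all. With IL6/sIL6Rα it called *Col12a1* higher (0.67) and *Aspn* lower (-1.52), against 0.552% and 0.235% of all.

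**Figure D4:**
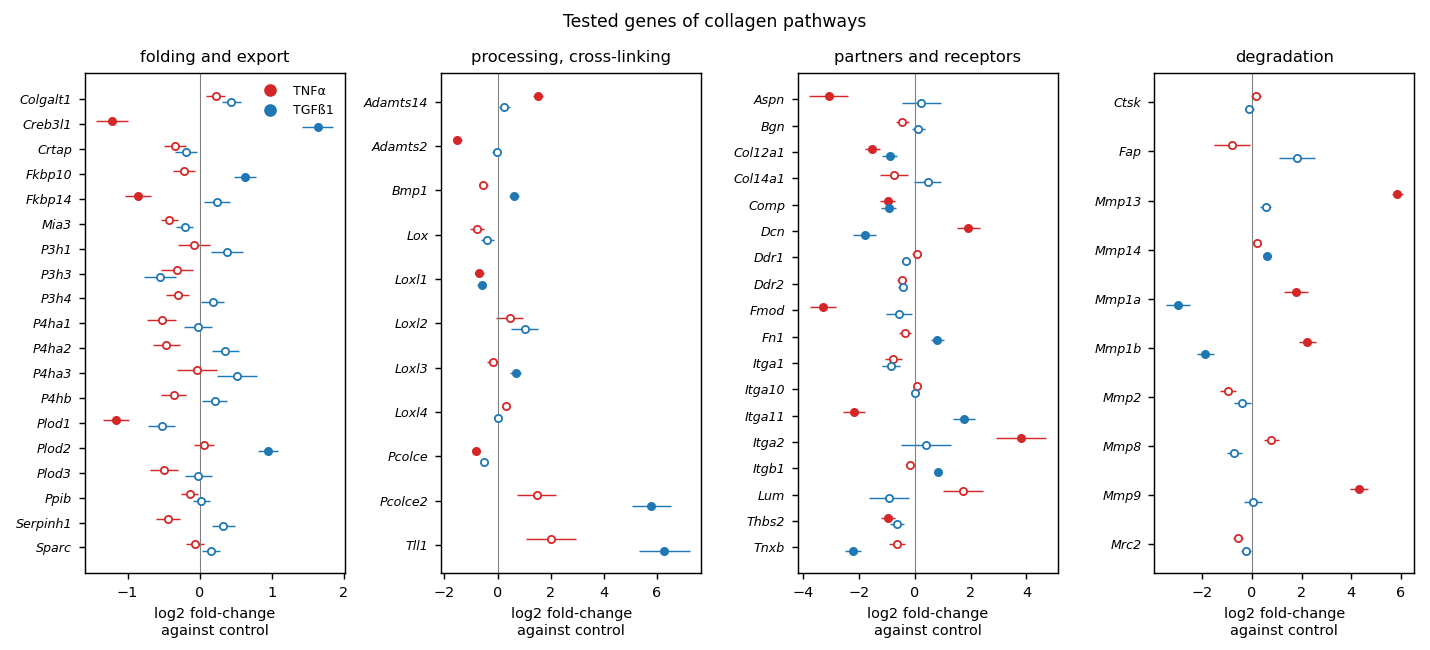
Log2 fold-change against control (horizontal axis) of the tested genes of 4 collagen pathway lists (vertical axis) with TNFα (red) and TGFß1 (blue); circles with bars are the estimate and its SE, filled where called. *Mmp13* and *Mmp9* stand far to the right with TNFα (5.84 and 4.31), *Tll1* and *Pcolce2* with TGFß1 (6.28 and 5.80), and *Creb3l1* lies on opposite sides of 0.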

How the data were processed

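Total RNA of 15 MEF samples was labelled by the authors with Cyanine 3, with spike-in RNA added, and hybridized to one-color 60-mer arrays. The deposited scanner files, made with Agilent Feature Extraction 10.7.3.1, give for each spot an intensity, the processed signal after background subtraction and detrending; the deposited value table holds the same intensities (largest difference 0). No normalization between arrays is in them. Spots flagged in the files as non-uniform or as outliers of their replicate spots were dropped. The log2 intensities of the spots sharing a probe were averaged, and each array was then scaled by subtracting its 75th percentile. Probes were named through RefSeq identifiers of GRCm38.p6 (33767 of 56605 probes matched). The file headers name the build mm9 for the array design, so no positions are given for probes. In gene lists, the probe with the highest mean signal stood for its gene. The number of arrays limits the precision; no spot was saturated.

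Groups came from the labels. All comparisons used 1 limma 3.58.1 fit of the 15 arrays (R 4.3.3, data.table version 1.17.8) with Benjamini-Hochberg adjustment over the 29333 tested probes, 2-sided; the code was tested on simulated data. Slides were read from the file headers. Whether runs of label numbers pair the arrays was checked with the slide removed: Pearson's r across probes of the deviations from group means was 0.114 to 0.671 for the 30 pairs of the same run and different groups, and 2 of 60 pairs of different runs exceeded 0.1. Without removing the slide, 12 of the 30 pairs did. A fit with runs and slide was therefore run for the members and the gene lists, and is given where it changes a member's call. Alternatives changed the normalization, background, filter, marked spots, slide, runs, arrays fitted, call rule and each array in turn.

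The members and gene lists were chosen with earlier results of these data known. Genes named are all members, for each the 3 genes most like it, and in each list the called genes with the largest change, at most 4.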

Additional observations from a re-analysis of the deposited data

How the results depend on the processing

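Of the 6 counts of called member probes, that of TGFß1 against TNFα stayed within 1.5 times of 8 and that of IL1β against control stayed at 0 under every alternative run. With TNFα against control the count of 8 became 5 without the filter on dim probes, 5 with a fold-change of at least 2, and 3 to 7 when 1 array was left out (3 without TNFα 4 and 5 without control 6). With TGFß1 against control the count of 4 became 2 with the median of each array, with the 75th percentile over detected probes, without the filter and with a fold-change of at least 2, and 2 to 4 when 1 array was left out (2 without control 1, control 11, TGFß1 2 or TGFß1 12); under quantile normalization it was 3, 2 higher and 1 lower, the last being *Col3a1* (-1.41; limma q = 0.043). With the runs as a block and the slide in the model, the count with IL6/sIL6Rα rose from 0 to 1, and that of IL1β against TNFα from 3 to 9 (7 with the runs alone). IL1β against TNFα gave 0 without the filter or with fewer groups in the fit, and 0 to 2 when 1 array was left out (0 without IL1β 15, TNFα 4, TNFα 9 or TNFα 14, and 1 without IL1β 10). *Col2a1* with TGFß1 reversed, from 0.24 to -1.15, with the runs as a block and the slide. The causes were not tested, apart from the fewer arrays or added probes of the settings themselves. *Col3a1*, the third *Col1a1* probe and the first *Col5a3* probe kept their calls with TNFα, and both *Col5a3* probes theirs with TGFß1, under all alternatives with a test. The slide difference of 4.16 limits *Col2a1*, which was not well above background on TNFα 14. Dim signal limits *Col11a1* and the second *Col5a3* probe, and leaves *Col24a1* and *Col27a1* untested.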

Other observations

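Ratios between collagen chains are given as a description, since they were chosen after the values had been seen and none could pass an exact permutation test at 0.05 with 3 against 3 arrays. Taken within each array as a log2 ratio and set to 0 at the control mean, the first *Col5a3* probe over *Col5a1* was higher by a mean of 2.72 ± 0.39 (SD, n = 3) with TNFα and of 2.50 ± 0.32 with TGFß1, while control arrays ranged from -0.23 to 0.43. With IL1β it was 0.78 ± 0.14, above all controls, and with IL6/sIL6Rα 0.02 ± 0.04. The exact permutation p was 0.10 for TNFα, TGFß1 and IL1β, 2-sided and unadjusted over the 24 ratio comparisons computed, and this is the smallest p that 3 against 3 arrays can give.

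The other type V ratio, *Col5a1* over *Col5a2*, differed from the control mean by 0.52 ± 0.22 with TGFß1, above all controls (-0.20 to 0.10), and by -0.32 ± 0.26 with TNFα and -0.23 ± 0.12 with IL1β, both overlapping with controls (exact permutation p = 0.10, 0.20 and 0.20). The ratio of *Col3a1* over *Col1a2* differed by a mean of -1.51 on the log2 scale with TNFα and -1.34 with TGFß1, below all controls in both (controls -0.37 to 0.47; exact permutation p = 0.10).

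The type I ratio differed with the *Col1a1* probe. With TNFα the first, the second and the third probe over *Col1a2* differed by -0.14 ± 0.13, 0.26 ± 0.16 and -0.73 ± 0.07, and the third alone lay clear of its controls (-0.24 to 0.12; exact permutation p = 0.60, 0.20 and 0.10). With TGFß1 they differed by 0.44 ± 0.14, 0.22 ± 0.31 and 0.27 ± 0.10. The ratio of the third probe also lay below all its controls with IL1β (-0.38 ± 0.11) and with IL6/sIL6Rα (-0.35 ± 0.09). It lay above them with TGFß1 (exact permutation p = 0.10 for each of these groups). The ratios compare changes of probes and not amounts of protein chains.

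*Col27a1*, a minor fibrillar collagen, was well above background on TGFß1 7, TGFß1 12 and IL1β 15 alone, and 1 of those arrays lay on slide 1 and the other 2 on slide 2.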
